A study of Chlorocebus sabaeus with 10 samples.

Results

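Enzymes that make and conjugate bile acids were compared in the liver between female vervet monkeys (Chlorocebus sabaeus) fed a high fructose (HFr) diet and controls fed chow. The set was defined by 8 gene symbols, CYP7A1, CYP7B1, CYP8B1, CYP27A1, HSD3B7, AKR1D1, AKR1C4 and BAAT, and each gene was represented by its transcript with the highest mean count. Of the 8 symbols, 7 matched 1 transcript each among the 28078 transcripts of the count table, and AKR1C4 was not analysed here. Each group had 5 animals, all kept on chow before the study. The paper describes them as age-matched, although their mean age was higher on HFr, with wide spreads and no significant difference in its test. From each animal 1 liver biopsy was sequenced as polyadenylated RNA after 6 weeks on its diet. The animals differed by diet alone as far as the labels state, and no genotype or drug was part of the design. A biopsy is bulk tissue, in which fewer cells of a type and less RNA per cell cannot be told apart.

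Bile acids are made from cholesterol in hepatocytes, and their synthesis is the main route by which the body disposes of cholesterol. In the classic pathway CYP7A1 hydroxylates cholesterol as the rate-limiting step, whereas the alternative pathway begins with side-chain oxidation by CYP27A1 followed by CYP7B1. HSD3B7, AKR1D1 and AKR1C4 then modify the sterol rings, CYP8B1 sets the proportion of cholic acid, and SLC27A5 and BAAT join the finished acid to coenzyme A and then to glycine or taurine. The pathway is known for feedback control, in which bile acids activate the nuclear receptor FXR (NR1H4) and thereby repress CYP7A1.

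The libraries held between 2977282 and 4992505 estimated counts each, and transcripts of the mitochondrial genome took between 34.7% and 73.6% of them. This left 864571 to 2657103 counts on nuclear transcripts. The mitochondrial share was 55.5% ± 11.8 (SD, n = 5) on HFr and 55.4% ± 16.5 (SD, n = 5) on chow (two-sided exact permutation test, p = 0.992). Hepatocyte markers were abundant in every biopsy, with a summed level of ALB, TTR, APOA1, APOC3, SERPINA1, TF, FGB and AHSG between 49197 and 75346 normalized counts (CPM) on HFr and between 39671 and 78992 CPM on chow. CPM here is the estimated count divided by the library size in units of 1000000 counts, after TMM scaling (trimmed mean of M values), which adjusts for differences in library composition. Because the tables hold no transcript lengths, levels were compared between animals and not between genes.

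AKR1D1 was the enzyme of the set with an unadjusted p under 0.05, the threshold used by the study, and it was lower on HFr. No enzyme differed after adjustment over all 7948 transcripts tested. CYP7A1 had 1 to 3 counts in 3 of the 5 HFr livers and within the chow range in the other 2. CYP8B1, CYP27A1, CYP7B1 and BAAT had lower fitted levels on HFr with 95% intervals that include 0, and HSD3B7 was about equal. In the test across all transcripts, 341 of 7948 (4.29%) had an unadjusted p under 0.05, 177 (2.23%) lower and 164 (2.06%) higher on HFr. None had an adjusted p under 0.05 with edgeR's quasi-likelihood test, and DESeq2 gave 2 (0.0252%). Of the 5 enzymes with enough counts to be tested there, all 5 were lower, as were 50.2% of all tested transcripts, 1 passed the unadjusted threshold and 0 the adjusted one. The filter asks for a minimum count in 5 animals, which CYP7A1 reached in 5 chow and 2 HFr animals and CYP8B1 in 3 and 2. CYP7A1 thus entered through the chow animals, where it was higher, and the tally of directions is a description only. In a fit without a filter, covering 16066 transcripts with a count in any animal, 6 of the 7 enzymes were lower and 1 was higher, with a median log2 fold change of -0.45 against -0.01 over all transcripts. In that fit 51.6% of all transcripts were lower. For none of the 7 enzymes were the diets free of overlap, compared with 0.541% of the tested transcripts and 0.479% of those in the fit without a filter.

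**Figure D1:**
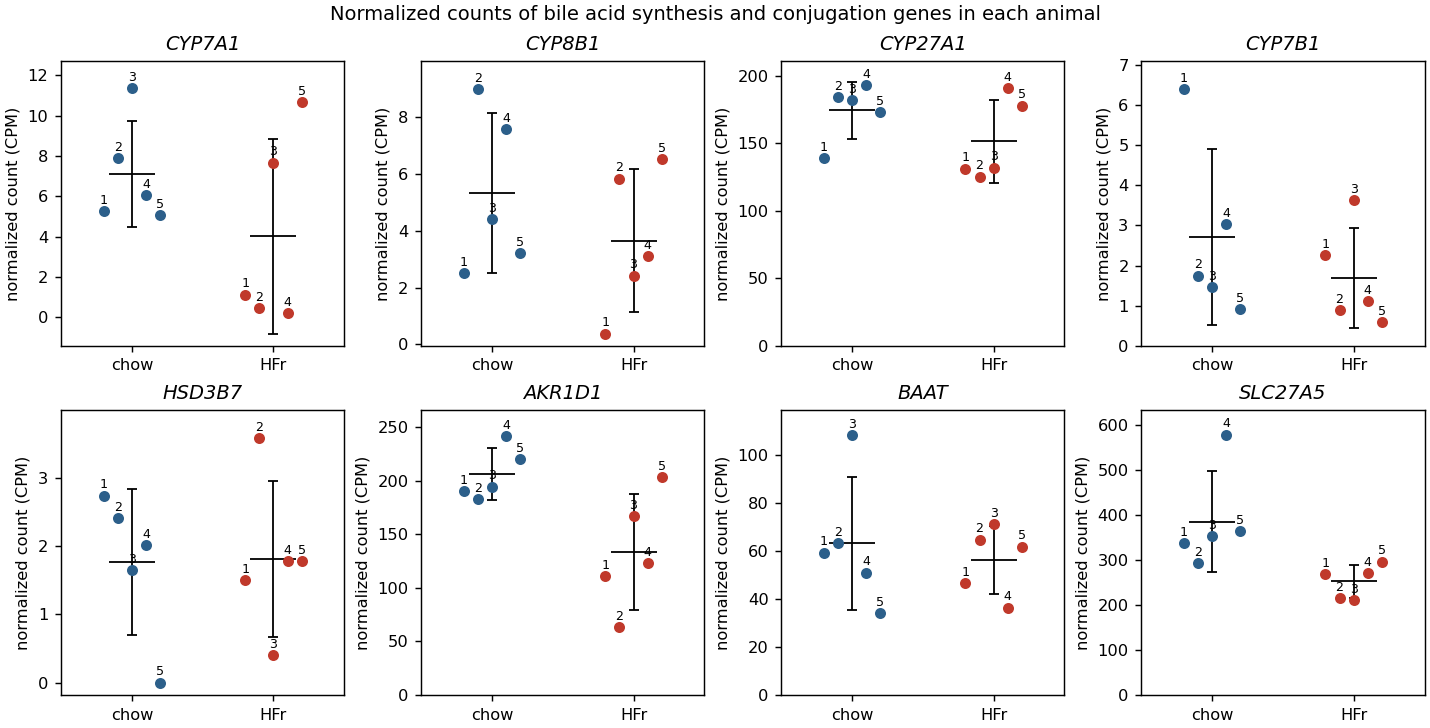
Normalized counts (CPM, linear axes) of the 7 enzymes and of SLC27A5 in each chow (blue) and HFr (red) animal, numbered by replicate, with mean and SD of 5 animals as black bars. CYP7A1 lay at 1.13 CPM or less in HFr animals 1, 2 and 4, and AKR1D1 lay at 167 CPM or less in HFr animals 1 to 4, against 183 CPM or more on chow.

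CYP7A1 (ENSCSAG00000014532) lies on the minus strand of chromosome 8 of the ChlSab1.1 assembly, from 54477105 to 54485649. Its normalized counts were 1.13, 0.449, 7.67, 0.222 and 10.7 CPM in HFr animals 1 to 5, from 3, 2, 19, 1 and 54 counts. The chow animals had 5.26, 7.88, 11.4, 6.06 and 5.06 CPM, from 23, 36, 62, 12 and 11 counts. HFr animals 1, 2 and 4 were therefore below every chow animal, while HFr animals 3 and 5 lay among them. The exact 95% Poisson interval reached no higher than 1.62 CPM in HFr animal 2 and 1.24 CPM in HFr animal 4, and no lower than 2.52 CPM in chow animal 5, the lowest of its group. In HFr animal 1 the interval was 0.233 to 3.30 CPM and overlapped that of chow animal 5. These intervals cover counting error only.

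The group means of CYP7A1 were 4.03 ± 4.83 CPM on HFr and 7.13 ± 2.62 CPM on chow (SD, n = 5 each). They differed by -0.85 ± 0.68 (standard error) on the log2 scale, with a 95% interval of -2.31 to 0.60, an unadjusted p of 0.230 and an adjusted p of 0.9996 from edgeR. The means differed by less than the SD of the HFr animals and by more than that of the chow animals, and an exact permutation test on the log2 values gave p = 0.135. The result depended on single animals in both directions. Without HFr animal 5 the log2 fold change was -1.84 (unadjusted p = 0.0208 and adjusted p = 0.953 from edgeR). It was -0.65, -0.54 and -0.53 without HFr animals 1, 2 and 4, and -0.60 without chow animal 3 (unadjusted p between 0.367 and 0.432 from edgeR). All 5 chow animals and 2 HFr animals reached the count minimum that admits a transcript to the test. The mitochondrial share was 61.6%, 41.8% and 62.2% in HFr animals 1, 2 and 4, and 67.8% and 44.0% in HFr animals 3 and 5. With mitochondrial transcripts removed the log2 fold change was -0.85, the same as with them.

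CYP8B1 (ENSCSAG00000018657), the sterol 12-alpha-hydroxylase gene, spans 1506 bases on the minus strand of chromosome 22, from 4324396 to 4325901. It had 0.377, 5.83, 2.42, 3.11 and 6.53 CPM in HFr animals 1 to 5 and 2.51, 8.98, 4.40, 7.58 and 3.22 CPM in chow animals 1 to 5. HFr animal 1, with 1 count, stood lowest, HFr animal 3 was just below the lowest chow animal, and the other HFr animals were within the chow range. On the log2 scale CYP8B1 differed by -0.45 ± 0.49 (standard error) with a 95% interval of -1.51 to 0.60, and edgeR gave an unadjusted p of 0.376. The value was -0.14 without chow animal 2, -0.21 without HFr animal 1 and -0.76 without HFr animal 5. The low CYP8B1 of HFr animal 1 came with low CYP7A1, but HFr animal 2 had low CYP7A1 and a CYP8B1 level above the chow median of 4.40 CPM.

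CYP27A1 (ENSCSAG00000008643), the mitochondrial sterol 27-hydroxylase gene, is on the plus strand of chromosome 10 from 104682673 to 104726687. It was well covered, with 327 to 992 counts per animal, and was the least variable of the enzymes on HFr (coefficient of variation 20.2%). HFr animals had 131, 125, 132, 191 and 178 CPM, and chow animals 139, 184, 182, 193 and 173 CPM. HFr animals 1, 2 and 3 lay below all chow animals, and HFr animals 4 and 5 within their range. The means of 151 ± 30.5 and 174 ± 20.9 CPM (SD, n = 5 each) differed by -0.20 ± 0.18 (standard error) on the log2 scale, with a 95% interval of -0.59 to 0.19 and an unadjusted p of 0.289 from edgeR.

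The second enzyme of the alternative pathway, CYP7B1 (ENSCSAG00000014274), encodes an oxysterol 7-alpha-hydroxylase and lies on the minus strand of chromosome 8 from 60496733 to 60524238. It was too low for the main test, with 6, 4, 9, 5 and 3 counts in HFr animals 1 to 5 and 28, 8, 8, 6 and 2 counts in chow animals 1 to 5. The corresponding levels were 2.26, 0.897, 3.63, 1.11 and 0.594 CPM on HFr and 6.40, 1.75, 1.47, 3.03 and 0.919 CPM on chow. Chow animal 1 was the highest, HFr animals 2 and 5 were slightly below the lowest chow animal, and the other HFr animals were within the chow range. In the fit without a filter, where 4.71% of 16066 transcripts had an unadjusted p under 0.05, CYP7B1 differed by -0.83 ± 0.56 (standard error) on the log2 scale, with an unadjusted p of 0.155 from edgeR. Without chow animal 1 it was -0.16, and without HFr animal 3 it was -1.26 (unadjusted p = 0.0448).

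Since counts of 2 genes in the same animal are scaled alike, CYP7A1 was also set against CYP27A1 as a ratio that no library scaling can change. CYP7A1 counts came to 0.862%, 0.358%, 5.81%, 0.116% and 6.01% of CYP27A1 counts in HFr animals 1 to 5. On chow the ratio was 3.78%, 4.29%, 6.25%, 3.14% and 2.93%. The same 3 HFr animals were below all chow animals and the other 2 were within the chow range. For AKR1D1 the ratio ranged from 50.5% to 127% on HFr (median 84.8%) and from 99.6% to 137% on chow (median 125%). HFr animals 1, 2 and 4 were below all chow animals in this ratio too. Both ratios have CYP27A1 as denominator, so they are not independent of each other. In HFr animal 3 the AKR1D1 level itself was below all chow animals, at 167 CPM against 183 CPM or more. Its CYP27A1 level of 132 CPM was also below all chow animals, and its AKR1D1 ratio of 127% lay within the chow range.

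**Figure D2:**
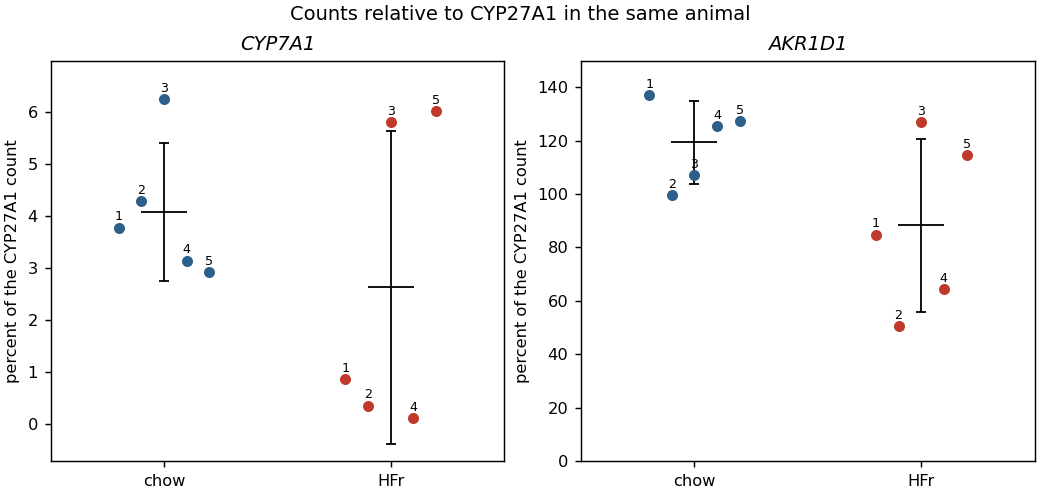
Counts of CYP7A1 (left) and AKR1D1 (right) as a percent of CYP27A1 counts in the same animal, for chow (blue) and HFr (red) animals numbered by replicate, with mean and SD as black bars. HFr animals 1, 2 and 4 were lower than all chow animals in both panels, and HFr animals 3 and 5 were not. The panels share the CYP27A1 denominator and are not independent.

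HSD3B7 (ENSCSAG00000005771) encodes the dehydrogenase that oxidizes the 3-beta-hydroxyl group of 7-alpha-hydroxylated sterols, and lies on the plus strand of chromosome 5 from 27676502 to 27679046. Its counts were 4, 16, 1, 8 and 9 in HFr animals 1 to 5 and 12, 11, 9, 4 and 0 in chow animals 1 to 5, too few for the main test. The 0 in chow animal 5 allows up to 1.38 CPM (3 counts in this library, the floor used here for a count of 0). Levels were 1.81 ± 1.14 CPM on HFr and 1.76 ± 1.07 CPM on chow (SD, n = 5 each), and in the fit without a filter they differed by 0.03 ± 0.55 (standard error) on the log2 scale, with a 95% interval of -1.11 to 1.16. A difference in HSD3B7 within this interval was not detected.

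AKR1D1 (ENSCSAG00000008745), the 5-beta-reductase gene whose product gives bile acids their bent ring junction, is on the plus strand of chromosome 21 from 106780339 to 106822696. It was well covered, with 282 to 1061 counts per animal. HFr animals 1 to 5 had 111, 63.3, 167, 123 and 203.6 CPM, and chow animals had 191, 183, 195, 242 and 220.1 CPM. Of the HFr animals, 4 were below all chow animals and animal 5 was among them. All 5 HFr animals lay below the chow mean. Levels were 134 ± 53.9 CPM on HFr and 206 ± 24.4 CPM on chow (SD, n = 5 each), which is a difference of -0.62 ± 0.26 (standard error) on the log2 scale, with a 95% interval of -1.18 to -0.07. The unadjusted p was 0.0310 and the adjusted p 0.9996 from edgeR, and the exact permutation test gave p = 0.0317. The spread was larger on HFr, with a coefficient of variation of 40.3% against 11.8% on chow.

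The AKR1D1 difference kept its direction with any 1 animal left out, with log2 fold changes from -0.44 without HFr animal 2 to -0.83 without HFr animal 5. The unadjusted p was 0.0677, 0.0597 and 0.0553 without HFr animals 1, 2 and 4, and 0.0658 and 0.0529 without chow animals 4 and 5, so the call was lost in these 5 fits. Scaling by library size alone also lost it (log2 fold change -0.63, unadjusted p = 0.0920). With mitochondrial transcripts removed the unadjusted p was 0.0295.

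**Figure D3:**
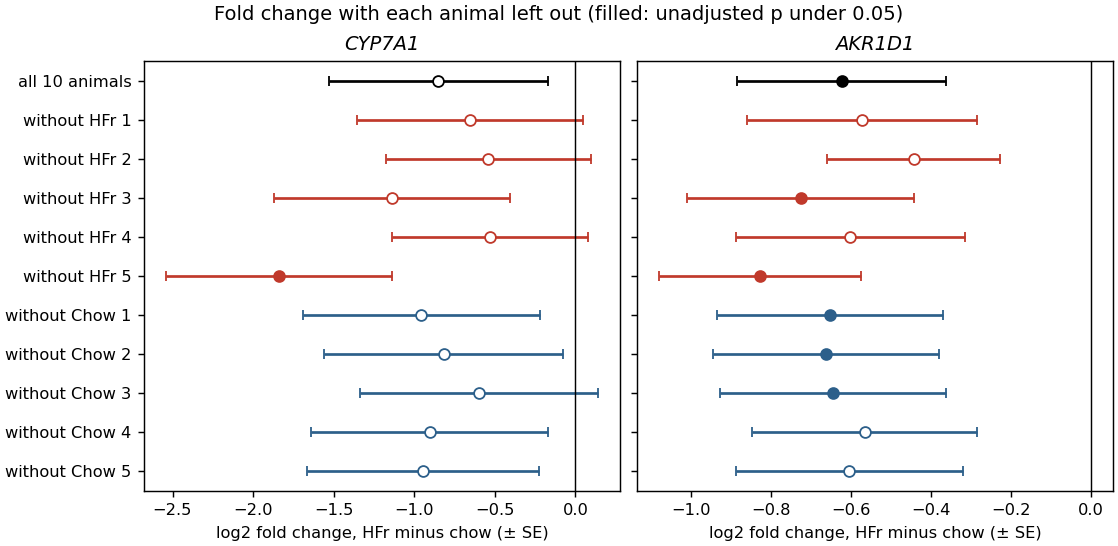
Log2 fold change (HFr minus chow, edgeR) of CYP7A1 and AKR1D1 with standard error, for all 10 animals (black) and with each HFr (red) or chow (blue) animal left out. CYP7A1 ranged from -0.53 to -1.84 and AKR1D1 from -0.44 to -0.83, and filled points have an unadjusted p under 0.05.

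For AKR1C4, a 3-alpha-hydroxysteroid dehydrogenase gene, no value is given. Its paralog AKR1C3, chosen after its values were seen because it carried the only AKR1C symbol among the deposited transcripts, had 9.32 ± 2.75 CPM on HFr and 11.2 ± 2.60 CPM on chow (SD, n = 5 each). AKR1C3 differed by -0.26 ± 0.24 (standard error) on the log2 scale, and reads of near-identical AKR1C genes could have been assigned to it.

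Conjugation requires SLC27A5, the bile acid coenzyme A ligase gene, which is not in the set but precedes BAAT in the pathway. It had 268, 216, 211, 271 and 296 CPM in HFr animals 1 to 5 and 338, 294, 353, 579 and 364 CPM in chow animals 1 to 5. HFr animal 5 exceeded chow animal 2 slightly, and apart from this pair the diets were separate. SLC27A5 was lower on HFr, by -0.61 ± 0.21 (standard error) on the log2 scale with a 95% interval of -1.06 to -0.15, and edgeR gave an unadjusted p of 0.0125 and an adjusted p of 0.9996. Without chow animal 4, the highest, the log2 fold change was -0.42 (unadjusted p = 0.0432), and with scaling by library size alone the unadjusted p was 0.144.

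BAAT (ENSCSAG00000011181), which encodes the amino acid N-acyltransferase of the last step, lies on the plus strand of chromosome 12 from 38073329 to 38081927. HFr animals had 46.7, 64.8, 71.4, 36.4 and 61.9 CPM and chow animals 59.4, 63.5, 108, 51.0 and 34.0 CPM. All HFr animals were within the chow range, with chow animal 3 the highest and chow animal 5 the lowest of all. BAAT differed by -0.18 ± 0.28 (standard error) on the log2 scale, with a 95% interval of -0.77 to 0.41 and an unadjusted p of 0.524 from edgeR, and by 0.10 without chow animal 3. Of HFr animals 1, 2 and 4, low in CYP7A1 and AKR1D1, animals 4 and 1 had the lowest BAAT of their diet. HFr animal 2 was above the chow mean of 63.3 CPM.

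Among 17 other genes of side-chain shortening, oxysterol hydroxylation, coenzyme A activation and bile acid detoxification, 14 passed the filter on low counts. In this group 8 were lower and 6 higher on HFr, with a median log2 fold change of -0.19, and 1 in each direction had an unadjusted p under 0.05. Over all tested transcripts 50.2% were lower, and 2.23% lower and 2.06% higher with an unadjusted p under 0.05. The lower one was SLC27A5. The higher one was ABCD3, which encodes a peroxisomal membrane transporter that admits bile acid intermediates and branched fatty acids. ABCD3 had 109, 124, 80.3, 89.3 and 68.8 CPM in HFr animals 1 to 5 and 51.6, 39.6, 79.0, 59.6 and 55.1 CPM in chow animals 1 to 5. HFr animal 5 was below chow animal 3, and the other HFr animals were above every chow animal. ABCD3 was higher on HFr, by 0.72 ± 0.22 (standard error) on the log2 scale with a 95% interval of 0.26 to 1.19, and edgeR gave an unadjusted p of 0.00479 and an adjusted p of 0.9996. The peroxisomal enzymes of side-chain shortening had differences of either sign. ACOX2 had a log2 fold change of -0.27 (standard error 0.24), HSD17B4 one of 0.22 (standard error 0.19), and ACAA1 one of 0.43 (standard error 0.26), none with an unadjusted p under 0.05.

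**Figure D4:**
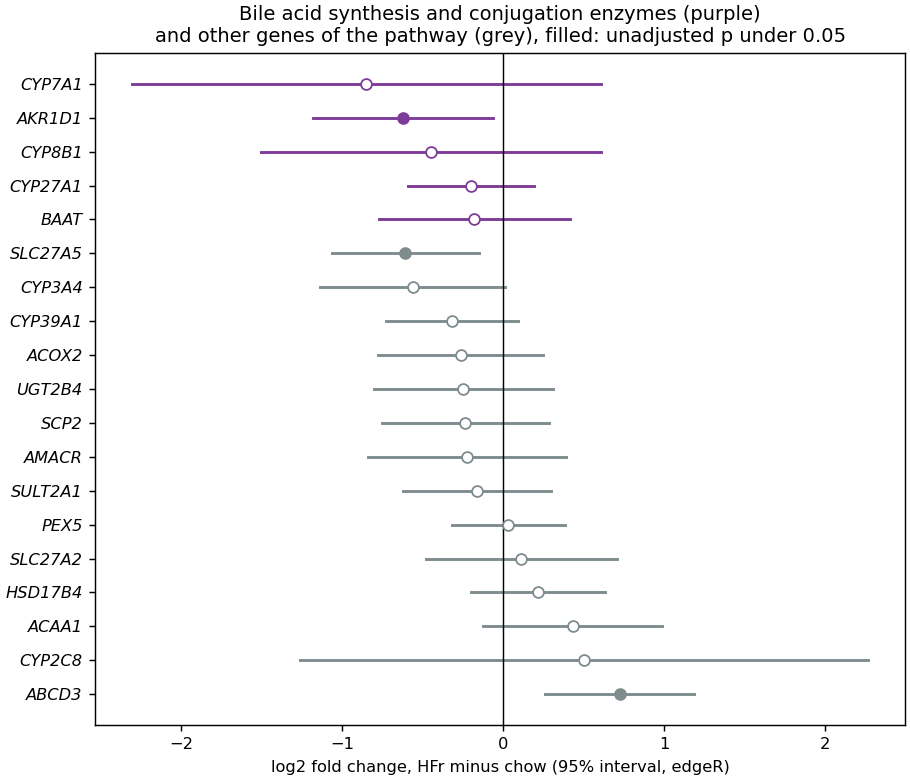
Log2 fold change (HFr minus chow, edgeR) with 95% interval for the 5 tested enzymes (purple) and 14 other tested genes of the pathway (grey), filled where the unadjusted p was under 0.05. All intervals but those of AKR1D1, SLC27A5 and ABCD3 include 0.

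Of 20 genes that control bile acid synthesis, 13 were tested, 6 lower and 7 higher on HFr, and 0 had an unadjusted p under 0.05. The smallest unadjusted p from edgeR was 0.0781, for NR1D1, a clock repressor. NR1H4, the bile acid receptor FXR, had 125 ± 22.5 CPM on HFr and 150.4 ± 19.1 CPM on chow (SD, n = 5 each), which differed by -0.27 ± 0.18 (standard error) on the log2 scale. NR0B2, the repressor SHP that FXR induces, had 18.5, 28.7, 23.8, 32.9 and 61.1 CPM in HFr animals 1 to 5 and 16.0, 49.7, 40.5, 21.2 and 5.97 CPM in chow animals 1 to 5. HFr animal 5, with the highest CYP7A1 of its diet, also had the highest NR0B2 of all. The log2 fold change of NR0B2 was 0.29 (standard error 0.44), and -0.06 without HFr animal 5. FGFR4, the receptor for the intestinal hormone FGF19 that represses CYP7A1, had a log2 fold change of 0.15 (standard error 0.28), and -0.09 without HFr animal 4. Its co-receptor gene KLB had at most 4 counts in any animal and was not tested.

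Of 13 listed transporters of bile acids and biliary lipids, 9 were tested, 5 lower and 4 higher, and 0 had an unadjusted p under 0.05. The smallest unadjusted p from edgeR was 0.0581, for ABCC4, a basolateral efflux pump gene. ABCB11, the canalicular bile salt export pump gene, had 29.2 ± 11.3 CPM on HFr and 25.8 ± 9.10 CPM on chow (SD, n = 5 each), a log2 difference of 0.20 ± 0.31 (standard error). SLC10A1, the gene of the sodium-dependent uptake carrier for bile acids, had 150.2 ± 34.5 and 152 ± 53.9 CPM (SD, n = 5 each), a log2 difference of -0.01 ± 0.26 (standard error). SLCO1B1, an uptake carrier gene chosen after its values were seen, had 486 ± 70.8 CPM on HFr and 639 ± 145 CPM on chow (SD, n = 5 each), a log2 difference of -0.40 ± 0.21 (standard error). Its unadjusted p was 0.0755 from edgeR and 0.0398 from DESeq2. The differences of ABCB11 and SLC10A1 were within the spread between animals, and the sign of each turned when 1 animal was left out.

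The transcripts whose log2 levels ranked the 10 animals most like CYP7A1 were CLINT1, EAPP, ERBIN and FXYD1, with a Spearman rho of 0.96 each, and NFKBIZ with a rho of 0.95. None of these 5 had an unadjusted p under 0.05 between the diets. Those most like AKR1D1 were TTPA (rho 0.94), FBXL5 (0.92), PNISR, SLC27A5 and TFPI (0.89 each). TTPA encodes the hepatic transfer protein for vitamin E and TFPI an inhibitor of coagulation. Of these, SLC27A5 and TFPI had an unadjusted p under 0.05, at 0.0125 and 0.0189 from edgeR. They were picked for ranking the same animals like AKR1D1, which itself was under this threshold, so these p-values are not separate support. These are the highest of all tested transcripts over only 10 animals that share library composition, and they are given as a description.

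CYP7A1 fell into separate sets of animals, 3 at or below 1.13 CPM and 7 at or above 5.06 CPM, so no Pearson correlation is given for it and the ranks above are a description only. None of the 10 pairs of tested enzymes, those with CYP7A1 included, had an adjusted p under 0.05. By rank, CYP7A1 had a Spearman rho of 0.61 with BAAT (permutation p = 0.0654, adjusted p = 0.288). Its rho was 0.54 with AKR1D1 (permutation p = 0.115, adjusted p = 0.288), 0.41 with CYP8B1 and 0.28 with CYP27A1. Among the other 4 tested enzymes, CYP27A1 and AKR1D1 had the closest relation over the 10 animals (Pearson r = 0.61, permutation p = 0.0434, adjusted p = 0.217 over 10 pairs, and Spearman rho = 0.58, permutation p = 0.0873, adjusted p = 0.288). Without the 2 animals farthest from the median of CYP27A1 the r was 0.08, so the relation over all animals rests on those animals. With values centred within each diet it was 0.47 (exact permutation p = 0.315), and 0.62 without the 2 animals then farthest from the median. BAAT and AKR1D1 had an r of 0.03 (permutation p = 0.924, adjusted p = 0.924) and a rho of -0.18 (permutation p = 0.630, adjusted p = 0.630). The r between BAAT and AKR1D1 was 0.15 without the 2 farthest animals.

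Pericentral hepatocytes are the zone where CYP7A1 is mainly made, and 4 of 8 pericentral markers were tested. All 4 were lower on HFr, GLUL by 0.13, AXIN2 by 0.18, CYP2E1 by 0.33 and OAT by 1.03 on the log2 scale, and 0 had an unadjusted p under 0.05. The smallest unadjusted p from edgeR was 0.0595, for OAT, which had 0.0362 in DESeq2 and 0.0239 in the fit without a filter. In that fit the 3 pericentral markers with too few counts for the main test were also lower. LGR5 had 48 counts in all on HFr and 87 on chow, SLC1A2 18 and 42, and RHBG 1 and 16, with 12 of the 16 in chow animal 1. Their unadjusted p from edgeR was 0.0523, 0.126 and 0.0153. Of all 16066 transcripts in that fit, 51.6% were lower and 4.71% had an unadjusted p under 0.05. Among the cell type lists, that fit is given for the pericentral one only. The summed level of the pericentral list was 2548 to 4954 CPM on HFr and 3797 to 5507 CPM on chow. Of 7 tested periportal markers 2 were lower and 5 higher, with sums of 1762 to 3998 CPM on HFr and 2674 to 3719 CPM on chow. Their part in the differences of AKR1D1 and CYP7A1 was not tested. Cholangiocyte markers summed to 59.1 to 87.4 CPM on HFr and 37.9 to 93.1 CPM on chow, and macrophage and lymphocyte markers to 325 to 409.6 and 287 to 393 CPM. Stellate and endothelial markers summed to 267 to 427 CPM on HFr and 208 to 675 CPM on chow, with LRAT at 0 in every animal. In these 3 lists, 16 genes were tested and ACTA2, a smooth muscle and activated stellate cell gene, was the 1 with an unadjusted p under 0.05. It was lower on HFr, with a log2 fold change of -1.57 (standard error 0.49). In the main test 4.29% of all 7948 transcripts had an unadjusted p under 0.05, and 0 an adjusted p under 0.05, ACTA2 included. Red blood cell markers summed to 101 to 335 CPM on HFr and 61.1 to 346 CPM on chow.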

How the data were processed

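RNA-Seq libraries of liver biopsies from 5 HFr and 5 chow animals were analysed. The authors deposited estimated counts per Ensembl transcript. They demultiplexed with CASAVA 1.8, aligned to ChlSab1.1 (the submitters' processing notes name STAR 2.5.3a) and shared reads out among transcripts with the expectation-maximization step of Partek Flow. Of these values, zeros included, 97.7% were exactly whole. The deposited signal values are the same counts scaled by the authors with TMM. Coordinates are those of the tables, counted from 1 with the last base included.

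Here, counts were rounded, filtered with filterByExpr (minimum count 10, minimum total 15) and compared with edgeR 4.0.16 in R 4.3.3 (TMM, quasi-likelihood test, diet as the only term, Benjamini-Hochberg adjustment over all tested transcripts). The standard error is the log2 fold change divided by the square root of F. Two-sided exact permutation tests used the 252 assignments of 5 of 10 animals, on log2(CPM + 1), with 0.00794 as the smallest p. Correlations used 100000 permutations. P-values measure the spread between animals of these biopsies, 1 library each. The procedure was tested on simulated data.

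Enzymes and gene lists were chosen with earlier results of these data known. Named from the lists were genes with an unadjusted p under 0.05, SLC27A5, NR1H4, NR0B2, FGFR4, KLB, ABCB11 and SLC10A1, and the 5 transcripts most like CYP7A1 and each enzyme with an unadjusted p under 0.05. Genes outside this rule were added as context after their values were seen. Alternatives were DESeq2 1.42.0, other scalings and filters, limma 3.58.1 and voom, counts summed by gene or not rounded, robust estimation, a replicate block, mitochondrial transcripts removed or as a covariate, and each animal left out. The last was added for the fit without a filter after the values were seen. The shared replicate numbers did not pair the animals. No sequences are shown.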

Additional observations from a re-analysis of the deposited data

Results flagged for a closer look

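The 5 animals of each diet were compared for the enzymes, the other named genes and the mitochondrial share, 32 groups in all, and 1 group held an animal far from the others. SLC27A5 stood at 579 CPM in chow animal 4 and between 294 and 364 CPM in the other chow animals, a gap of 0.755 of the range of the group. Chance alone flags about 1 in 20 groups. Chow animal 4 had the fewest counts on nuclear transcripts (864571) and the highest mitochondrial share (73.6%), and the part of these in its SLC27A5 value was not tested.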

How the results depend on the processing

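For CYP7A1, CYP8B1, CYP27A1 and AKR1D1 the sign of the log2 fold change was the same under all alternatives that gave a value, and BAAT turned in 1. CYP7A1 gained an unadjusted p under 0.05 with limma at a pseudocount of 0.1 (log2 fold change -1.81) and with voom and quality weights (-1.83), which made 2 enzymes under 0.05 in each of these fits. AKR1D1 lost it with library size only (-0.63), which left 0 enzymes and 123 transcripts under 0.05. Testing transcripts with any count gave 756 transcripts. With 1 animal left out, CYP7A1 ranged from -1.84 to -0.53, CYP8B1 from -0.76 to -0.14, CYP27A1 from -0.31 to -0.14, AKR1D1 from -0.83 to -0.44, BAAT from -0.34 to 0.10, NR0B2 from -0.0636 to 0.63, FGFR4 from -0.0939 to 0.38, ABCB11 from -0.00897 to 0.36, SLC10A1 from -0.19 to 0.18 and, in the fit without a filter, HSD3B7 from -0.36 to 0.23 (below 0 also without chow animals 3 and 5, at -0.0189 and -0.215), while between 0 and 2 enzymes and 260 to 408 transcripts were under 0.05. SLC10A1 turned to 0.00198 with upper-quartile scaling, 0.0138 with library size only, 0.00102 with at least 10 counts in every animal, 0.0763 and 0.0779 with limma and 0.0415 with the replicate block. The r of AKR1D1 and BAAT turned to -0.0598 within diets and -0.0432 without mitochondrial transcripts in the library size. The cause of these changes was not tested. Same-numbered animals did not deviate together (correlations from -0.29 to 0.10), and the replicate block gave 271 transcripts, a log2 fold change of -0.72 for AKR1D1 (unadjusted p = 0.0133 from edgeR) and -1.42 for CYP7A1 (unadjusted p = 0.0635). With limma on the authors' normalized values 230 transcripts under 0.05 were higher and 112 lower, against 164 and 177 in edgeR. CYP7A1 and CYP8B1 had no value with at least 10 counts in every animal. Depth limits CYP7A1, CYP7B1, CYP8B1 and HSD3B7, which had 62 reads or fewer per animal.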
